A study of Mus musculus with 15 samples.

Results

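B cells are the lymphocytes that make antibody. They recognise antigen with a surface immunoglobulin whose signal passes through the CD79A and CD79B chains to kinases of the SRC and TEC families and to phospholipase C-gamma 2. Coreceptors and inhibitory receptors at the cell surface raise or damp that signal, the cytokine BAFF keeps resting B cells alive, and the transcription factors EBF1 and PAX5 set and hold the lineage. In the lung, B cells lie in the capillary bed and in small lymphoid clusters beside the airways.

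The B cell genes examined here are 34 genes named for their place in B cell identity, antigen receptor signalling or B cell survival, of the 19934 genes that had a row of their own on the array. A gene was followed through the row that named it and no other gene, and where several rows did so, through the row with the highest mean level over all arrays. On this basis 32 of the 34 genes were measured, and the other two, Ighd and Cd38, had no row of their own and were not analysed here. No filter on low values was applied.

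The study asked how inhaled hydrogen sulfide alters gene expression in a mouse model of ventilator-induced lung injury. Male C57BL/6N mice weighing 24-26 g were anaesthetised with ketamine and acepromazine, and all received an arterial line and a tracheal tube. Of the 15 mice, 5 were ventilated for 6 h with synthetic air containing 80 ppm H2S, 5 were ventilated for 6 h with synthetic air alone, and 5 controls breathed synthetic air spontaneously for 6 h. Ventilation used a tidal volume of 12 ml/kg and an end-expiratory pressure of 2 cm H2O. Bronchoalveolar lavage fluid was collected at the end of the experiment, and RNA came from the inferior right lung lobe. Each mouse gave 1 array and is named here by its group and label, such as 34_22. The second number of that label lies between 1 and 12 for 3 mice of each group and between 20 and 28 for 2 mice of each group, and no source used here says what it stands for. The lobes are bulk tissue, so that fewer B cells and less RNA per B cell cannot be told apart.

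The median intensity was 179 to 187 on the arrays of air-ventilated mice, 180 to 185 on those of H2S-ventilated mice and 184 to 187 on those of controls. Arrays of the same group correlated at 0.984 to 0.994. The mean log2 level of 10 alveolar epithelial and club cell markers was between 12.33 and 12.45 in all 15 mice, and the defining B cell markers Cd79a, Cd79b and Ms4a1 were also measured in every lobe.

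Most B cell genes were lower in ventilated lungs than in the lungs of spontaneously breathing mice, with and without H2S in the air. After ventilation with air, 21 of the 32 genes were lower than in controls and 0 were higher (limma, Benjamini-Hochberg adjusted p under 0.05 over all 28361 rows), against a background of 1.95% of all genes called lower. After ventilation with H2S, 27 of 32 were lower and 0 were higher, with a background of 4.07%. CyberT, the regularised test of the methods, also called 0 higher in either comparison, as did limma at an unadjusted p under 0.05. The same 21 genes were lower in both comparisons, 6 more passed with H2S and not with air (Plcg2, Ralgps2, Cd37, Tnfrsf13b, Cd180 and Pou2f2), and 5 passed in neither (Ighm, Vpreb3, Btk, Fcrl5 and Bach2). Both comparisons used the same 5 control mice, and no B cell gene passed when H2S-ventilated mice were set against air-ventilated mice.

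The median log2 difference over the 32 genes was -0.78 with air and -0.79 with H2S, where the median over all 19934 genes was 0.01 and -0.00. With air all 32 differences lay below 0, and with H2S 31 of 32 did, Fcrl5 being the exception at 0.04. By the thresholds of the study's methods (p no greater than 0.005, a false discovery rate of 10% or less and at least a 1.7-fold change), 17 genes were lower with air (background 0.411%) and 19 with H2S (background 0.527%). The study selected genes on these same arrays and the list was drawn up with such results known, so that these counts are no independent evidence of the direction. Without control 13_25 the count with air by these thresholds was 10, and without air-ventilated mouse 12_10 it was 11. In 15 genes all 5 air-ventilated mice were below all 5 controls (background 3.25%), and in 24 genes all 5 H2S-ventilated mice were (background 4.43%).

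**Figure D1:**
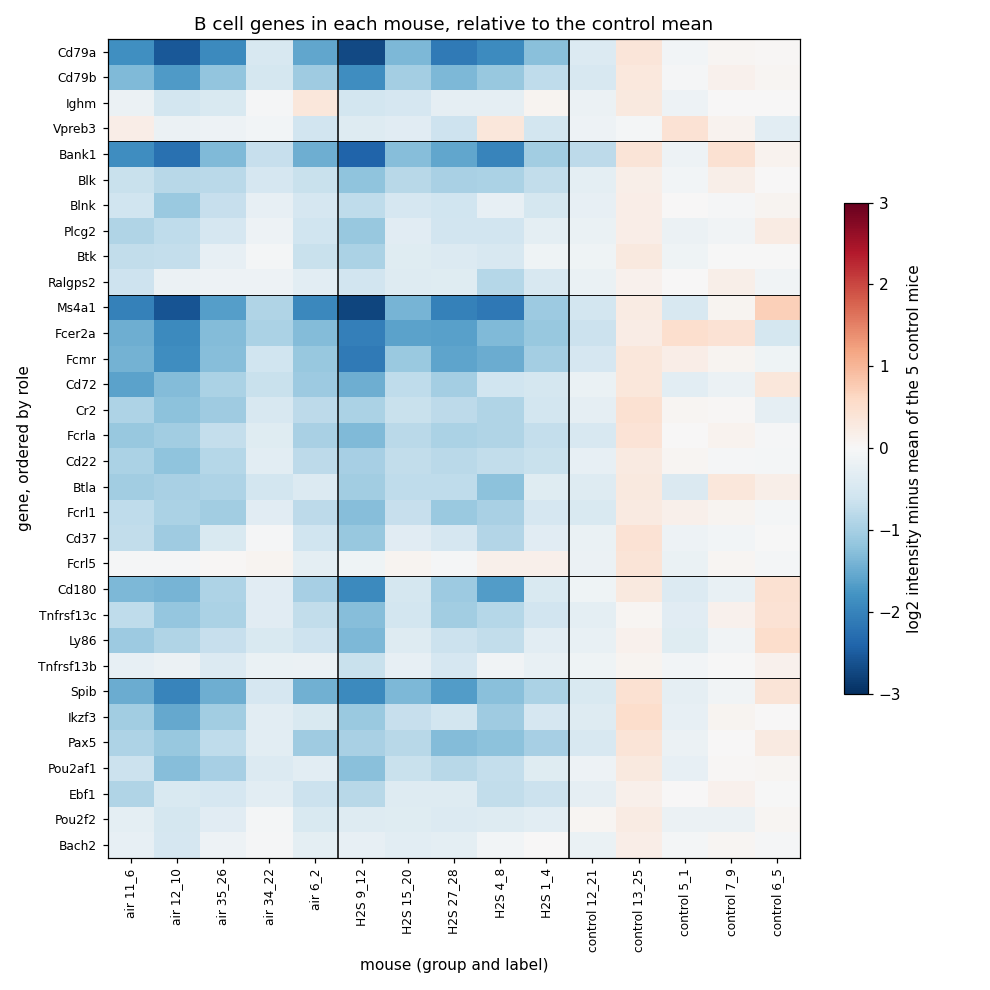
Log2 intensity of the 32 B cell genes in each mouse (columns, by group), as the difference from the mean of the 5 control mice, with the genes ordered by role and lines between roles and groups. Most rows are blue in both ventilated groups, air-ventilated mouse 34_22 is the palest of its group, and Ighm, Vpreb3, Fcrl5 and Bach2 show little difference.

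Of the antigen receptor chains, Cd79a and Cd79b were lower in both comparisons, while Ighm and Vpreb3 passed in neither. CD79A and CD79B are the signalling chains that carry the receptor's message across the membrane. Cd79a (GRCm38 chromosome 7, 24897497 to 24901858) had intensities of 289, 179, 276, 747 and 355 in air-ventilated mice, 158, 410, 241, 281 and 440 in H2S-ventilated mice, and 786, 1345, 992, 1091 and 1073 in controls. Every ventilated mouse was below every control, although air-ventilated mouse 34_22, at 747, came close to the lowest control. The geometric mean was thereby 31.5% of the control level with air and 27.5% with H2S. Cd79b (chromosome 11, 106311341 to 106314562) had 667, 510, 729, 1153 and 790 in air-ventilated mice, 457, 823, 648, 751 and 980 in H2S-ventilated mice, and 1198, 2074, 1631, 1805 and 1725 in controls. The groups were again apart, and the log2 difference was -1.16 after air (SE 0.22, adjusted p = 0.00738) and -1.23 after H2S (SE 0.22, adjusted p = 0.00256).

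Ighm, the heavy chain of immunoglobulin M, had intensities of 228, 175, 189, 251 and 325 in air-ventilated mice, 177, 182, 215, 213 and 273 in H2S-ventilated mice, and 226, 317, 233, 258 and 260 in controls. The groups overlapped, and the log2 difference was -0.17 after air (SE 0.16, adjusted p = 0.753) and -0.30 after H2S (SE 0.16, adjusted p = 0.32). Of the 3 rows that carry this symbol, the others differed by -0.33 and -0.47 with air and by -0.49 and -0.74 with H2S, and none passed. Rows of the heavy-chain locus can share sequence with one another, so that these levels are uncertain. Whether the 3 rows measure the constant region of Ighm is not known here. Vpreb3, a protein of the pre-B cell receptor's surrogate light chain family, differed by -0.15 after air (adjusted p = 0.851) and -0.31 after H2S (adjusted p = 0.379).

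Among the genes that relay the receptor's signal, Bank1 and Blk had the largest differences and the smallest p. BANK1 is an adaptor that B cell SRC kinases phosphorylate. Bank1 had intensities of 109, 83.8, 159, 245 and 143 in air-ventilated mice, 74.3, 163, 133, 99.9 and 192 in H2S-ventilated mice, and 229, 513, 355, 545 and 424 in controls. All H2S-ventilated mice were below all controls, whereas air-ventilated mouse 34_22 was above control 12_21. The log2 difference was -1.51 after air (SE 0.30, adjusted p = 0.0106) and -1.66 after H2S (SE 0.30, adjusted p = 0.00334). Blk, a SRC family kinase of B cells, had 148, 130, 133, 164 and 147 in air-ventilated mice, 101.1, 132, 118, 122 and 140 in H2S-ventilated mice, and 192, 266, 221, 262 and 236 in controls. Its spread within groups was narrow, and its adjusted p was the smallest of the 32 genes in both comparisons, at 0.00282 with air (difference -0.70, SE 0.11) and 0.000174 with H2S (difference -0.94, SE 0.11).

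The 4 other signalling genes had smaller differences. Blnk, the adaptor that links the kinase SYK to phospholipase C-gamma 2, was lower, with a log2 difference of -0.63 after air (adjusted p = 0.0158) and -0.53 after H2S (adjusted p = 0.0244). Plcg2, that phospholipase, differed by -0.59 in each comparison and passed after H2S (adjusted p = 0.0383) but not after air (adjusted p = 0.0649). Btk, the TEC family kinase that activates it, differed by -0.48 (adjusted p = 0.121) and -0.47 (adjusted p = 0.0789) and passed in neither. Ralgps2, an exchange factor for RAL GTPases that is not restricted to B cells, differed by -0.29 after air (adjusted p = 0.224) and was lower, at -0.53 after H2S (adjusted p = 0.00833).

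The coreceptors, inhibitory receptors and Fc receptors formed the largest group, and 9 of 11 were lower with air and 10 of 11 with H2S. CD20, encoded by Ms4a1, is a membrane protein of B cells from the pre-B to the memory stage. Ms4a1 (chromosome 19, 11249679 to 11266149) had intensities of 146, 98.8, 191, 321 and 158 in air-ventilated mice, 88.6, 226, 147, 136 and 282 in H2S-ventilated mice, and 411, 706, 429, 629 and 980 in controls. It had the largest difference of the 32 genes, with a geometric mean at 28.3% of the control level with air and 27.1% with H2S, and no ventilated mouse reached the lowest control. Fcer2a, the low-affinity IgE receptor CD23, had 111, 82.1, 126, 160 and 126 in air-ventilated mice, 74.7, 102, 100.1, 123 and 141 in H2S-ventilated mice, and 197, 359, 438, 420 and 216 in controls. Its controls fell into 3 high and 2 low mice, all above every ventilated mouse, and the log2 difference was -1.39 after air (SE 0.24, adjusted p = 0.0052) and -1.55 after H2S (SE 0.24, adjusted p = 0.00118).

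Fcmr, the Fc receptor for IgM, had intensities of 202, 149, 222, 356 and 245 in air-ventilated mice, 124, 248, 180, 192 and 267 in H2S-ventilated mice, and 380, 688, 624, 575 and 494 in controls. The groups did not overlap, with a log2 difference of -1.26 after air (SE 0.23, adjusted p = 0.00688) and -1.47 after H2S (SE 0.23, adjusted p = 0.00134). Cd72, a receptor that damps the antigen receptor's signal, had 166, 207, 264, 320 and 240 in air-ventilated mice, 183, 299, 249, 338 and 350 in H2S-ventilated mice, and 444, 646, 409, 449 and 640 in controls. It was lower, at -1.12 after air (SE 0.20, adjusted p = 0.00603) and -0.88 after H2S (SE 0.20, adjusted p = 0.0128), so that its mean in H2S-ventilated mice lay nearer to that of controls. In the mice with label numbers 1 to 12 alone its call with H2S was lost (adjusted p = 0.134).

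Fcrla, an Fc receptor-like protein that stays inside the cell, had 163, 175, 220, 282 and 184 in air-ventilated mice, 144, 207, 189, 193 and 219 in H2S-ventilated mice, and 260, 480, 363, 388 and 351 in controls. Only air-ventilated mouse 34_22 overlapped the controls, and the log2 difference was -0.85 after air (adjusted p = 0.00993) and -0.94 after H2S (adjusted p = 0.00283). Fcrl1, an Fc receptor-like surface protein of B cells, had 97.0, 85.4, 79.8, 130.0 and 96.5 in air-ventilated mice, 68.4, 102, 76.9, 84.2 and 117 in H2S-ventilated mice, and 120, 200, 185, 176 and 158 in controls. Mouse 34_22 was again the 1 air-ventilated mouse above the lowest control, and the difference was -0.78 after air (adjusted p = 0.0146) and -0.91 after H2S (adjusted p = 0.00321).

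Of the other 5 members of this group, 3 were lower in both comparisons. Cr2, the complement receptor CD21, was at 53.7% of the control level with air and 58.5% with H2S. Cd22, an inhibitory receptor that binds sialic acid, was at 56.6% with air and 57.9% with H2S, and Btla, an inhibitory receptor also known from T cells, was at 58.1% and 56.2%. Cd37, a tetraspanin of leukocytes, was lower with H2S (-0.64, adjusted p = 0.0497) and differed by -0.58 after air (adjusted p = 0.122). Fcrl5, a further Fc receptor-like protein, was the single member of the group with no difference near the others, at -0.05 after air (adjusted p = 0.94) and 0.04 after H2S (adjusted p = 0.893), and its intensities of 62.7 to 81.0 in air-ventilated mice and 70.3 to 86.1 in H2S-ventilated mice lay within the 67.0 to 101.1 of controls except for 1 air-ventilated mouse.

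Of the survival and innate receptors, 2 of 4 were lower with air and all 4 with H2S. Tnfrsf13c, the BAFF receptor, was lower, at -0.79 after air (adjusted p = 0.02) and -0.86 after H2S (adjusted p = 0.00675). Tnfrsf13b, the receptor TACI for BAFF and APRIL, differed by -0.24 (adjusted p = 0.265) and -0.35 (adjusted p = 0.0399). CD180 and LY86 are the 2 subunits of a Toll-like receptor 4 homologue that B cells and myeloid cells carry. Cd180 had intensities of 224, 217, 300.3, 454 and 287 in air-ventilated mice, 153, 399, 267, 180 and 414 in H2S-ventilated mice, and 524, 695, 430, 494 and 790 in controls. Air-ventilated mouse 34_22 was the only ventilated mouse above a control. The log2 difference was -1.0 after air (SE 0.28, adjusted p = 0.0624) and -1.13 after H2S (SE 0.28, adjusted p = 0.0189), and its partner Ly86 was lower, at -0.76 (adjusted p = 0.0416) and -0.69 (adjusted p = 0.0387). The call of Cd180 with H2S was lost without control 13_25, control 6_5, H2S-ventilated mouse 9_12 or H2S-ventilated mouse 4_8 (adjusted p of 0.0505 to 0.0527), and it was gained with air without mouse 34_22 (-1.17, adjusted p = 0.0246).

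Among the transcription factors, 5 of 7 were lower with air and 6 of 7 with H2S. SPI-B is an ETS factor of mature B cells and plasmacytoid dendritic cells. Spib had intensities of 122, 87.2, 126, 241 and 126 in air-ventilated mice, 91.5, 135, 107, 144 and 178 in H2S-ventilated mice, and 249, 471, 284, 323 and 452 in controls. All ventilated mice were below all controls, with a log2 difference of -1.38 after air (SE 0.25, adjusted p = 0.00608) and -1.43 after H2S (SE 0.25, adjusted p = 0.00229). Pax5, the factor that commits cells to the B lineage (chromosome 4, 44524748 to 44710694), had 160, 140, 181, 245 and 146 in air-ventilated mice, 156, 174, 125, 131 and 153 in H2S-ventilated mice, and 220, 401, 271, 310 and 368 in controls. Mouse 34_22 alone crossed into the control range, and the difference was -0.85 after air (SE 0.17, adjusted p = 0.0107) and -1.06 after H2S (SE 0.17, adjusted p = 0.00142).

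Ebf1, which opens the B lineage programme and is also expressed by stromal cells, had 399, 537, 521, 601 and 474 in air-ventilated mice, 419, 567.8, 566, 445 and 479 in H2S-ventilated mice, and 618, 820, 744, 807 and 741 in controls. The groups were apart but the difference was smaller than that of Pax5 or Spib, at -0.57 after air (SE 0.12, adjusted p = 0.0138) and -0.60 after H2S (SE 0.12, adjusted p = 0.00546). Pou2af1, the B cell coactivator of octamer-binding factors, was lower, at -0.73 and -0.77, and Ikzf3, the zinc-finger factor Aiolos, at -0.88 and -0.78. Pou2f2, the octamer-binding factor OCT2, was lower with H2S (-0.37, adjusted p = 0.0276) and differed by -0.34 after air (adjusted p = 0.075). Bach2, a repressor that keeps B cells from becoming plasma cells and also acts in T cells, passed in neither comparison (-0.25 and -0.19).

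**Figure D2:**
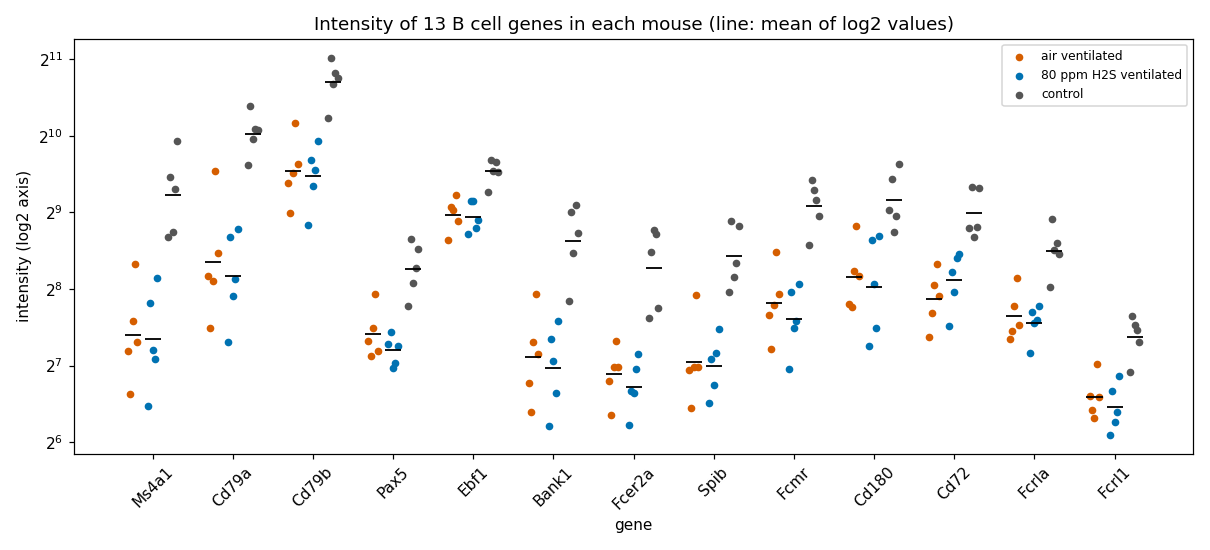
Intensity of 13 B cell genes in each mouse on a log2 axis, with air-ventilated, H2S-ventilated and control mice from left to right within each gene and a line at the mean of the log2 values. In Ms4a1, Cd79a and Cd79b every ventilated mouse lies below every control, and the highest air-ventilated mouse of each gene is 34_22.

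Promoter sequences of 27 of the 32 measured genes were in the RefSeq table for GRCm38.p6, which runs from 250 bases before an annotated start to 50 after it. The 5 genes below are shown because their windows hold a motif of a B lineage factor and because they are among the lower genes. Cd79a and Cr2 stood at the head of the planned choice, and Bank1, Spib and Cd72 were taken after the scan as genes described above that hold a motif other than the E-box. The start used need not be the outer end of the gene. The sequence shown for Cd72 lies inside the gene's annotated span, and those of Cr2, Bank1 and Spib lie partly inside it. Capitals mark the matches, the sequences run 5′ to 3′ on the strand of the gene, and each is the 250 bases before the start, at chr7:24897247-24897496 (plus strand) for Cd79a, chr1:195176720-195176969 (minus) for Cr2, chr3:136326067-136326316 (minus) for Bank1, chr7:44532072-44532321 (minus) for Spib and chr4:43454627-43454876 (minus) for Cd72.
Cd79a: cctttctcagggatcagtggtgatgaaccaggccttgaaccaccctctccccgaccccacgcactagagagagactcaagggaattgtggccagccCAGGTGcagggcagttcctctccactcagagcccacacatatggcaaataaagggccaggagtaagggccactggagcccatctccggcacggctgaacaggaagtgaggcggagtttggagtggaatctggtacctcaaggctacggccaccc
Cr2: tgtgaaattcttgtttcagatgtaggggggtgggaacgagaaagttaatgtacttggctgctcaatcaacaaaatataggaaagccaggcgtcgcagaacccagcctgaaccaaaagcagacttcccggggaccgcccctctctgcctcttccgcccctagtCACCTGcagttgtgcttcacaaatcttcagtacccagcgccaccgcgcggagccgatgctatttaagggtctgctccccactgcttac
Bank1: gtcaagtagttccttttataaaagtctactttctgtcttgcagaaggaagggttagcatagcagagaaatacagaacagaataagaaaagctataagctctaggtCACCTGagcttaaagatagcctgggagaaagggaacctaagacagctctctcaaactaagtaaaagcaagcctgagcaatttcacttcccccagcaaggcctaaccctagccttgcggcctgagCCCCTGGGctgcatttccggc
Spib: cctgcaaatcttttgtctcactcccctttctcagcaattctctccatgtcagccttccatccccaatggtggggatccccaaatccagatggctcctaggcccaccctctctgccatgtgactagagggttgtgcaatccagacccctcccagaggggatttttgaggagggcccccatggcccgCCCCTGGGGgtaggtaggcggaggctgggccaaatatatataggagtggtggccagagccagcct
Cd72: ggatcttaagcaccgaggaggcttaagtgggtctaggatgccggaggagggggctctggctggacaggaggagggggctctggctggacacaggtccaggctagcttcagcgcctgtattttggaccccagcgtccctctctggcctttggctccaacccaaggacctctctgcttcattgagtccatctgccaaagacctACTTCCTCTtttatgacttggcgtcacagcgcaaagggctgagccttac

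Each motif was searched on both strands of the whole window. The E-box CAGGTG, which E2A binds, was in 12 of 27 windows (44.4%, against 22.6% of 27025 genes in the table), including those of Cd79a, Cr2 and Bank1. The inner part of the EBF1 palindrome, CCCNNGGG, was in 3 (11.1%, against 15.4%), namely Bank1, Cd22 and Spib, and the 2 matches in Spib overlap by all but 1 base. The PU box AGAGGAAGT, a site for ETS factors such as PU.1 and SPI-B, was in Cd72, Btla and Cd37 (11.1%, against 1.18%), and the octamer ATTTGCAT was in Vpreb3 and Blnk (7.41%, against 1.97%). A match describes the letters of the window and no binding was measured. Vpreb3, with an octamer 45 bases before the start used, did not pass in either comparison. That start lies inside the annotated span of Vpreb3. Blnk, with an octamer 130 bases before its start, was lower in both.

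Genes known mainly from B cells had larger median differences than those that other cells also express, by a division made from general knowledge and with no test. For 20 of the measured genes no other cell type was listed, and 16 of these were lower with air and 17 with H2S, with medians of -0.85 and -0.92. The other 12 (Ebf1, Bach2, Btla, Ikzf3, Ly86, Btk, Plcg2, Cd180, Pou2f2, Blnk, Cd37 and Ralgps2) are also known from stromal, T, myeloid or many cells, and 5 were lower with air and 10 with H2S, with medians of -0.58 and -0.59. The exceptions among the first set were Ighm, Vpreb3, Fcrl5 and, with air, Tnfrsf13b. Spib was counted in that set although it is also known from plasmacytoid dendritic cells, so that the division is approximate.

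No difference between H2S-ventilated and air-ventilated mice in B cell genes was detectable with 5 mice a group. Of the 32 genes, 0 were lower and 0 higher in H2S-ventilated than in air-ventilated mice by limma at an adjusted p under 0.05 (background 0.01% lower), and 0 by CyberT. At an unadjusted p under 0.05 limma gave 1 lower gene and 0 higher (background 2.6% lower), and CyberT 2 lower. The gene that limma gave was Blk, which differed by -0.24 (95% interval -0.46 to -0.01), and the smallest adjusted p of the 32 genes was 0.834. The differences ran from -0.24 in Ralgps2 to 0.24 in Cd72, and their median was -0.06. The 95% interval lay within 0.5 log2 of 0 in both directions for 20 genes. It reached furthest down in Cd79a, from -0.88 to 0.49, and furthest up in Cd72, from -0.18 to 0.67, so that differences of that size remain within the intervals. For Ms4a1 the interval was -0.77 to 0.65, and for Pax5 -0.58 to 0.14.

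**Figure D3:**
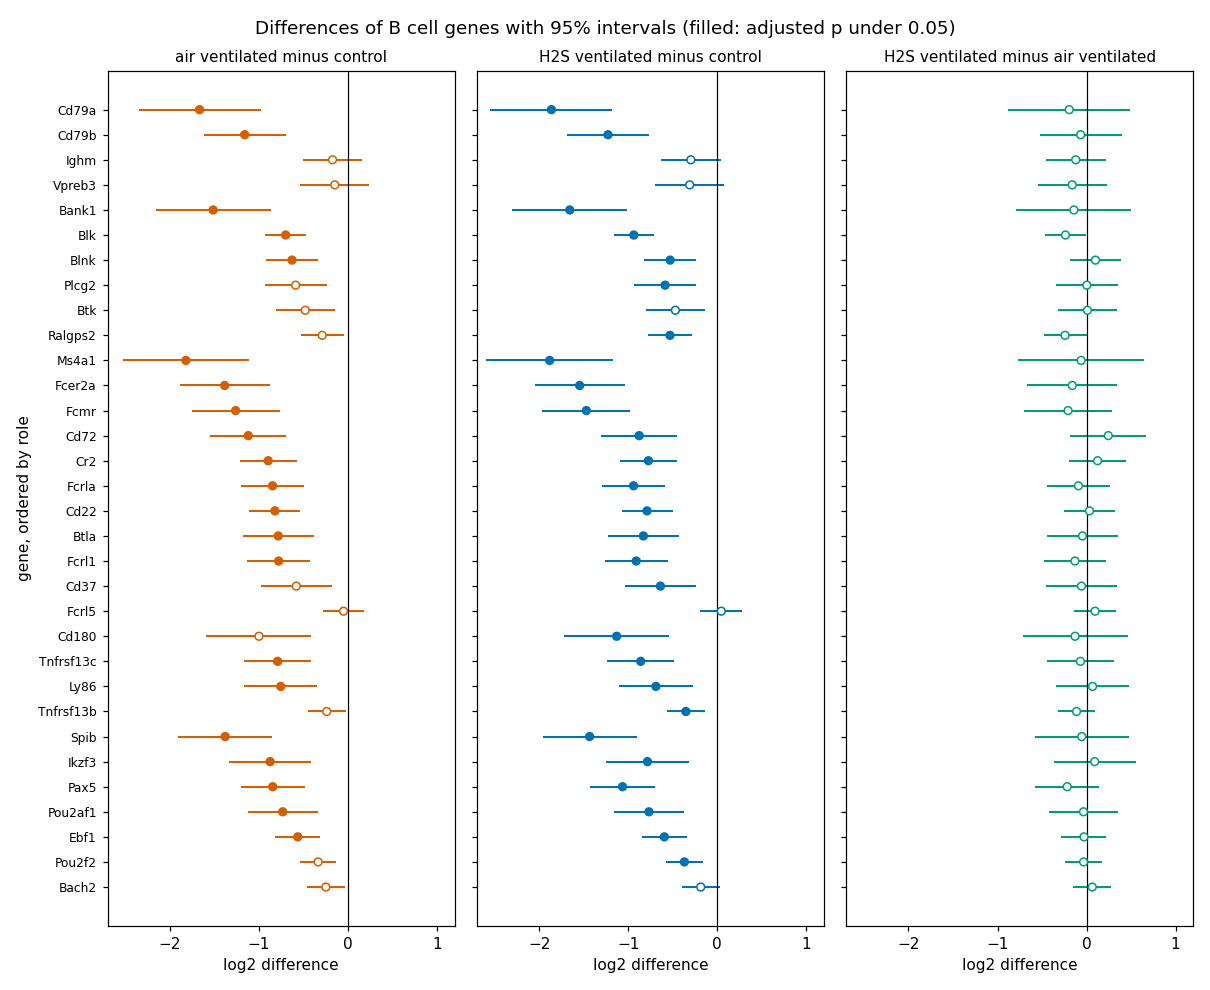
Log2 difference (point) and 95% interval (line) of each B cell gene for air-ventilated minus control, H2S-ventilated minus control and H2S-ventilated minus air-ventilated mice, with genes ordered by role and filled points at an adjusted p under 0.05. The first and second panels have 21 and 27 filled points, all below 0, and the third has 0, with intervals on both sides of 0 in 31 of 32 genes.

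Within groups the B cell genes moved together from mouse to mouse. The mean log2 level of the 32 genes was 7.69 ± 0.28 in air-ventilated mice, 7.64 ± 0.26 in H2S-ventilated mice and 8.49 ± 0.22 in controls (SD, n = 5 each). It ran from 7.36 to 8.13 with air, from 7.25 to 7.93 with H2S and from 8.18 to 8.76 in controls, so that the highest air-ventilated mouse, 34_22 at 8.13, stood just under the lowest control, 12_21 at 8.18. In mouse 34_22 all 32 genes were above their group mean. In control 12_21 only 1 of 32 was above its group mean, in control 13_25 31 were, and in H2S-ventilated mouse 9_12 only 1 was.

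Deviations from the group mean, taken over the 15 mice, correlated with a median r of 0.64 over the 496 pairs of genes, of which 471 were above 0. These mice share group means and arrays, so that the values describe these lobes. Neither these correlations nor the counts above the group mean were computed for other genes. Whether moving together is particular to B cell genes was therefore not tested. Cd79b followed the mean of the other 31 genes most closely (r = 0.982), then Cd79a (0.950), Bank1 (0.938), Fcmr (0.936) and Spib (0.927). Vpreb3 (-0.15) and Ralgps2 (0.364) followed it least. Pax5 (0.710) and Ebf1 (0.573) lay between.

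The label numbers were examined because they split every group. In the mice numbered 1 to 12 the mean log2 level of the 32 genes was 7.55 with air, 7.60 with H2S and 8.50 in controls (n = 3 each), and in those numbered 20 to 28 it was 7.91 with air, 7.69 with H2S and 8.47 in controls (n = 2 each). All 32 differences between air and control lay below 0 in both sets, with a median of -0.90 in numbers 1 to 12 and -0.56 in numbers 20 to 28. Between H2S and control, 31 of 32 did in the first set and 32 in the second, with medians of -0.82 and -0.75. Between H2S and air, 13 of 32 lay below 0 in the first set and 28 in the second. A term for the difference between sets passed for 0 of 32 genes in each of the 3 comparisons (limma, smallest adjusted p 0.996). It also passed for 0 of all rows, so that agreement between the sets cannot be read from it. At an unadjusted p under 0.05 it passed for 0 in air against control, 1 in H2S against control and 1 in H2S against air. The share of all genes at that p was not computed. The term, numbers 20 to 28 minus 1 to 12, was below 0 in 4 of 32 genes for air against control. It was below 0 in 10 for H2S against control and in 27 for H2S against air. Fitted alone, the mice numbered 20 to 28 gave 0 members past an adjusted p under 0.05 by limma in any comparison, and 0 of all genes were called lower against control there. At an unadjusted p under 0.05 limma gave 14 members lower with air and 25 with H2S, where 3.1% and 5.6% of all genes were lower. CyberT called 17 and 26 members, with 1.18% and 3.74% of all genes. The mice numbered 1 to 12 alone gave 15 members lower with air (1.23% of all genes) and 16 with H2S (1.85%).

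Other genes of B cell function were taken from lists of the receptor's signalling chain, of homing and survival and of antibody secretion. Among 18 further genes of receptor signalling, 1 was lower with air and 2 were lower and 1 higher with H2S. Over all genes, 1.95% were lower with air, and 4.07% were lower and 4.68% higher with H2S. Prkcb, the protein kinase C-beta that B cells use downstream of the receptor, was lower, at -0.72 after air (adjusted p = 0.0372) and -0.78 after H2S (adjusted p = 0.0132). Cd81, a tetraspanin found on many cells, was lower, at -0.24 with H2S, and Bcl10, an adaptor of the NF-kappaB arm, was higher by 0.37 with H2S. The median of this list was -0.17 with air and -0.12 with H2S, and Syk, Vav1, Inpp5d and Grb2, which many blood cells express, passed in neither comparison.

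Of 19 genes of survival and homing, 6 were lower with air and 5 with H2S, where 1.95% and 4.07% of all genes were lower. None of the 19 was higher. Cxcr5, the chemokine receptor that brings B cells into follicles, had intensities of 40.6 to 85.3 with a median of 48.6 in air-ventilated mice, 39.4 to 61.3 with a median of 56.4 in H2S-ventilated mice, and 70.5 to 129 with a median of 103 in controls. It was lower, at -0.89 after air (adjusted p = 0.0273) and -0.91 after H2S (adjusted p = 0.0137). Tnfsf13b, which encodes BAFF, was lower, at -0.46 and -0.54, Cd40, the receptor for T cell help, at -0.34 and -0.33, and Cxcl12, a chemokine that stromal cells make, at -0.90 and -0.68. Cxcr4, the receptor of that chemokine, was lower, at -0.43 and -0.66, and Ccr7, a lymph node homing receptor shared with T cells and dendritic cells, at -0.64 after air (adjusted p = 0.0271), while with H2S it differed by -0.43 (adjusted p = 0.103).

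Of 9 antibody and plasma cell genes 0 were lower and 0 higher in either comparison by limma. At an unadjusted p under 0.05 limma gave 1 lower with air and 2 with H2S, where 8.49% and 11.3% of all genes were lower. CyberT called 0 and 1 lower, where 3.53% and 4.79% of all genes were. The median of these 9 genes was -0.02 with air and -0.16 with H2S. They included Jchain, which joins secreted IgA and IgM (0.36 and 0.13), Igha, the heavy chain of IgA (-0.05 and -0.69), and Xbp1 and Prdm1, the factors of plasma cells (Xbp1 -0.02 and 0.15, Prdm1 -0.05 and -0.24). Air-ventilated mouse 6_2 stood apart on this list, with a mean log2 level of 9.00 against 7.90 to 8.18 in the other air-ventilated mice. Its Jchain intensity was 800.1, against 62.4 to 107 in the others of its group, and its Igha intensity was 2197, against 184 to 394. Without this mouse, an alternative chosen after its values were seen, the difference with air was -0.29 for Jchain and -0.65 for Igha. Among 8 regulators of apoptosis, 3 were higher with air and 2 with H2S, where 1.95% and 4.68% of all genes were higher. Bcl2l1, which encodes the survival protein BCL-XL in many cells, was higher by 0.53 and 0.57, and Mcl1, of the same family, by 0.27 and 0.35. Pmaip1, which encodes the pro-apoptotic protein NOXA, was higher after air (0.45, adjusted p = 0.0222) and differed by 0.34 after H2S (adjusted p = 0.0584).

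Of 8 genes of class II antigen presentation, which B cells share with macrophages, dendritic cells and type II cells, 4 were lower with air and 3 with H2S. The shares of all genes called lower were 1.95% and 4.07%. H2-Ob, a chain of the peptide-loading regulator H2-O that is known mainly from B cells, was lower, at -0.98 after air (adjusted p = 0.00935) and -1.09 after H2S (adjusted p = 0.00258). Its partner chain H2-Oa was lower, at -0.55 and -0.48, and Ciita, the class II transactivator, at -0.72 and -0.55. Cd74, the invariant chain, differed by -0.08 and 0.01.

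Markers of other cells moved in several directions in the same lobes. By limma at an adjusted p under 0.05, 1.95% of all genes were lower and 1.95% higher with air. With H2S, 4.07% were lower and 4.68% higher. A single gene called in a list of this length therefore does not describe its cell type. Of 14 T cell markers 0 passed in either comparison by limma, also at an unadjusted p under 0.05, or by CyberT, with medians of -0.07 with air and -0.08 with H2S, and their mean log2 level ran from 7.15 to 8.18 with air, 7.37 to 7.78 with H2S and 7.41 to 7.94 in controls. Of 11 NK cell markers 0 passed with air by limma (4 lower at an unadjusted p under 0.05, 3 by CyberT) and 1, Klre1, was lower with H2S (5 and 5). Of all genes, 8.49% with air and 11.3% with H2S were lower at that unadjusted p, and 3.53% and 4.79% by CyberT. At the same unadjusted p, 7.33% with air and 11.4% with H2S were higher. Klre1 was dim and the groups overlapped, with intensities of 16.7 to 26.8 in H2S-ventilated mice and 25.8 to 37.1 in controls. The list's medians were -0.45 and -0.50, and the summed intensity was 1320 to 4488 with air, 1235 to 3296 with H2S and 3019 to 5025 in controls. Of 12 neutrophil markers 3 were higher with air and 4 with H2S, among them Mmp8, a granule collagenase (1.88 and 1.94), and Retnlg (1.15 and 1.23), and their summed intensity was 16820 to 23676 with air, 16395 to 27625 with H2S and 11993 to 16840 in controls. Of 8 endothelial markers 2, Kdr and Tek, were lower in each comparison, and of 10 alveolar epithelial and club cell markers 0 were with air and 1, Abca3, was with H2S. Monocyte markers passed by limma in 1 of 8 with air, lower, and in 3 of 8 with H2S, 2 lower and 1 higher. Their medians were -0.53 with air and -0.40 with H2S. At an unadjusted p under 0.05, 6 were lower and 1 higher with air, and 4 lower and 2 higher with H2S. CyberT called 6 lower and 1 higher with air, and 4 lower and 1 higher with H2S. Dendritic cell markers passed in 2 of 8 in each comparison, all lower, while the list's medians were 0.06 with air and -0.02 with H2S. Alveolar macrophage markers had 1 lower and 1 higher of 8 with air and 2 higher with H2S, and of 8 fibroblast and muscle markers 1 was lower with H2S. The part of these shifts in the levels of B cell genes was not tested. Between H2S and air, 0 of the 150 genes of these lists passed by limma, with 4 lower and 9 higher at an unadjusted p under 0.05 and 2 higher by CyberT. That unadjusted p gave 2.6% of all genes lower and 3.31% higher.

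**Figure D4:**
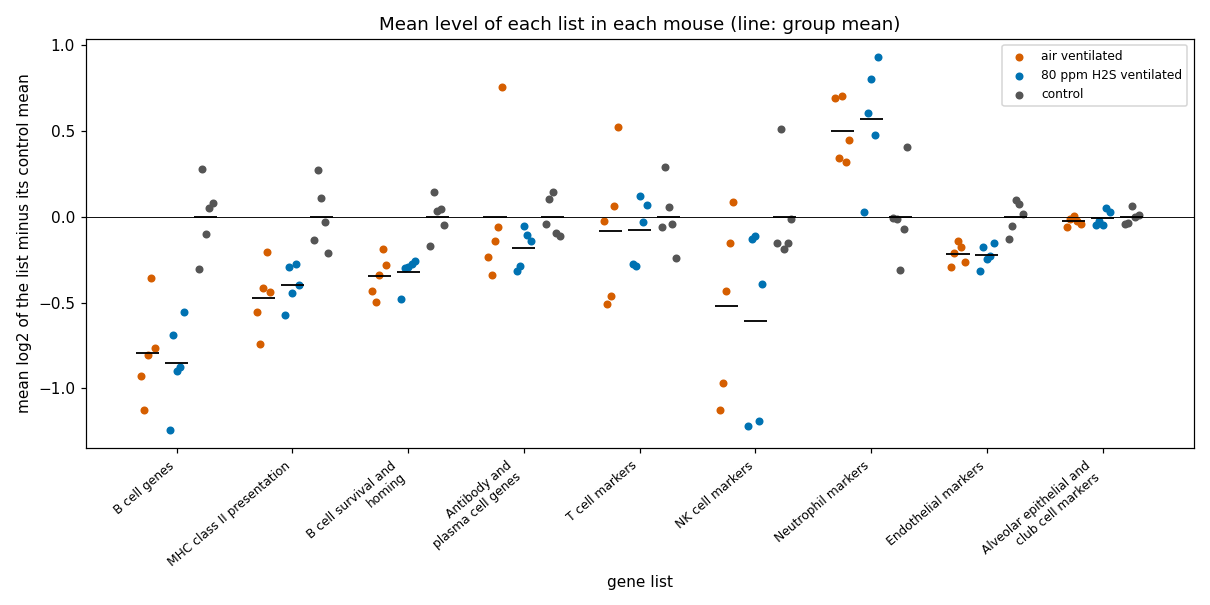
Mean log2 level of B cell genes and of 8 other gene lists in each mouse, as the difference from the list's control mean, with air-ventilated, H2S-ventilated and control mice from left to right and a line at the group mean. The B cell genes of all ventilated mice lie below all controls, the T cell markers of the groups overlap, and the neutrophil markers of all ventilated mice lie above the control mean.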

How the data were processed

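Affymetrix whole-transcript arrays of 15 lobes were read with Command Console. The authors corrected background by GC content from anti-genomic probes, quantile-normalized the arrays and used RMA to summarize probes in Genedata Expressionist Refiner, and deposited intensities on a linear scale, which were transformed to log2 here although the plan had taken them as log2. Of 28361 rows, 21780 had 1 gene symbol in the platform table, 1617 had several and 4964 had none, and 0 columns were left unused.

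All rows were fitted with limma 3.58.1 in R 4.3.3 over the 15 arrays, with 3 contrasts, no covariate, and Benjamini-Hochberg adjustment over all rows. The number of arrays limits the precision. Alternatives were CyberT (confidence 15, window 101), fits of the 2 groups alone, rescaling, quantile normalization again, leaving out the dimmest 25% of rows, the mean of a gene's rows, array weights, a variance trend, the fold from group medians, label number blocks and subsets, and leaving out each mouse. No label number recurs between groups, and no source used here says that neighbouring numbers mark matched mice, so that they entered only as blocks in alternative fits. The limma step was tested on simulated data. Plots were made in Python 3.11.15 with matplotlib 3.10.9.

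The genes given mouse by mouse are Ms4a1, Cd79a, Cd79b, Pax5 and Ebf1, and the 8 others with the largest change. Ighm and Blk were added after their values were seen. The members and lists were chosen with earlier results of these data known. Tables of fold changes in the study's supplement were not used.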

Additional observations from a re-analysis of the deposited data

Results flagged for a closer look

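Within groups of 5, each of the 32 genes and the mean over them was checked for a mouse that stood apart from the others, which made 99 checks. Chance flags about 1 in 20 such groups, and 2 were flagged. Btk in control 13_25 had an intensity of 209, above the other controls at 157 to 169 with a median of 163, and the gap was 0.734 of the group's range. This mouse had the highest mean level of B cell genes among controls. Tnfrsf13b in air-ventilated mouse 35_26 had an intensity of 157, below the other air-ventilated mice at 176 to 183 with a median of 183, and the gap was 0.738 of the range. Neither gene passed in the comparison of air with control.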

How the results depend on the processing

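No member was higher than in controls under any alternative, and the medians with air and with H2S stayed below 0 in all. In the mice with label numbers 20 to 28 alone (2 a group), limma called 0 members lower with air and 0 with H2S, also by the study's thresholds, but 0 of all genes were called lower there too. In numbers 1 to 12 alone, 15 were lower with air and 16 with H2S. Leaving out 1 mouse gave 16 to 26 genes lower with air and 19 to 27 with H2S, and 10 to 20 with air and 13 to 20 with H2S by the study's thresholds. The lowest count by those thresholds with air, 10, came without control 13_25, and it was 11 without air-ventilated mouse 12_10.

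Leaving out 1 mouse, the median lay between -0.87 and -0.71 with air, between -0.86 and -0.71 with H2S, and between -0.16 and 0.06 between H2S and air. In numbers 1 to 12 and 20 to 28 alone these medians were -0.90 and -0.56, -0.82 and -0.75, and 0.05 and -0.19. Of the 13 genes given mouse by mouse under the rule, Cd180 with air passed in 9 alternatives (adjusted p = 1.8e-05 with CyberT), and Cd180 and Cd72 lost their call with H2S in numbers 1 to 12 alone (adjusted p = 0.0738 and 0.134). No label number (the second of each label) is shared between groups. Runs of 4 label numbers as a block gave 18 members lower with air and 22 with H2S. H2S-ventilated mouse 15_20 was the only mouse in its run, so that it added nothing to the differences of that fit. Triplets of neighbouring label numbers, with 1 mouse of each group, were added as a block after the data were seen and gave 20 and 27. Neither block gave a member that differed between H2S and air by limma. The share of all genes called was not computed for the block fits or for leaving out 1 mouse.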
